A study of Mus musculus with 9 samples.

Results

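The miR-181 family consists of 4 mature 5p microRNAs in the mouse, mmu-miR-181a-5p, mmu-miR-181b-5p, mmu-miR-181c-5p and mmu-miR-181d-5p (given without the prefix from here on), and all 4 were taken by name from the 817 mature miRNAs listed in the count table and the read lists of small RNA sequencing (sRNA-seq). The libraries came from preleukemic cells (preLSCs), which are c-Kit-enriched fetal liver cells of mid-gestation embryos that had been transduced with retroviral Meis1 and Hoxa9 and replated serially. There were 5 control libraries (Tut4/7 CTL, labelled WT) and 4 knockout libraries (Tut4/7 cKO, labelled Tut4/7 Vav-iCre KO), all labelled with the Hox9/Meis1 treatment. Per the study's methods, the mice were C57BL/6 and both genotypes carried the floxed Tut4 and Tut7 alleles, with the controls being littermates without iCre. Vav-iCre drives recombination in blood cells, and cells that had escaped the deletion could not be recognised in these data. Reads of small RNAs carry no Tut4 or Tut7 mRNA, so the genotypes were taken from the labels. The study separately reports PCR for the Tut4 and Tut7 deletions in Meis1/Hoxa9 cells of both genotypes, without naming these libraries.

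MicroRNAs are loaded into Argonaute and select their targets mainly through the seed, bases 2 to 8 from the 5′ end. TUT4 and TUT7 are terminal uridylyl transferases that add uridines to the 3′ ends of small RNAs, precursor miRNAs and mRNAs, and an added uridine is read as a T. The miR-181 family is known from blood cell development, where miR-181a in particular tunes the sensitivity of T-cell receptor signalling and is high in developing lymphocytes.

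The mature sequences from RefSeq (table build GRCm38.p6) are shown with the seed in capitals, because the seed is the same in all 4 members. Tails are added at the 3′ end, where miR-181a-5p and miR-181c-5p are alike. miR-181b-5p and miR-181d-5p are alike there too, but for the last U of miR-181b-5p:
miR-181a-5p: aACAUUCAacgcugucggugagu
miR-181b-5p: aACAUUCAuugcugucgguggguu
miR-181c-5p: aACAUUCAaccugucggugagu
miR-181d-5p: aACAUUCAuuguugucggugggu
No other listed miRNA had the seed ACAUUCA. The mature miR-181b-5p used for the read lists was 23 bases long and lacked the last U of the 24-base RefSeq entry, so a read ending on that U counted as carrying 1 added T. Counted from 1 at the 5′ end of the 23-base forms, miR-181a-5p and miR-181b-5p differed at 3 positions (A9T, C10T and A21G), whereas miR-181b-5p and miR-181d-5p differed at 1 (C12T). No read of a member fitted another listed miRNA.

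The members come from 6 hairpins in 3 clusters of the GRCm39 genome. Mature miR-181a-5p lies on the plus strand of chromosome 1 at chr1:137894206-137894228 (Mir181a-1) and of chromosome 2 at chr2:38742753-38742775 (Mir181a-2), and miR-181b-5p lies downstream of each, at chr1:137894388-137894410 (Mir181b-1) and chr2:38743857-38743879 (Mir181b-2). The chromosome 1 pair is exonic in the lncRNA Mir181a-1hg, and the chromosome 2 pair is intronic in the lncRNA Nr6a1os and, on the opposite strand, in Nr6a1. On the minus strand of chromosome 8, miR-181c-5p (chr8:84905553-84905574) and miR-181d-5p (chr8:84905388-84905410) both lie in an intron of Nanos3. Because both copies of miR-181a-5p, and both of miR-181b-5p, give the same mature read, the counts could not be assigned to a copy.

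The genome itself continues with Ts after each mature sequence, and a read that includes them cannot be told apart from one with added uridines. These stretches of GRCm39 show the mature sequence in lower case, the following genomic Ts in capitals and the next bases in lower case:
Mir181a-1: aacattcaacgctgtcggtgagtTTggaat
Mir181a-2: aacattcaacgctgtcggtgagtTTgggat
Mir181b-1: aacattcattgctgtcggtgggtTgaactg
Mir181b-2: aacattcattgctgtcggtgggtTTgaatg
Mir181c: aacattcaacctgtcggtgagtTTgggca
Mir181d: aacattcattgttgtcggtgggtTgtgagg
Thus 2 Ts could be encoded for miR-181a-5p and miR-181c-5p, 1 for miR-181d-5p, and 1 or 2 for miR-181b-5p depending on the copy. A tail of 3 Ts on miR-181a-5p, miR-181b-5p or miR-181c-5p, and a tail of 2 or 3 Ts on miR-181d-5p, is encoded at none of their exact matches.

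The CTL libraries held 209702 to 316620 miRNA reads and the cKO libraries 175462 to 479342. CTL replicate 2 stood apart from the other CTL libraries in its long tails, with 52 reads of any miRNA carrying exactly 3 Ts where the others had 454 to 715. Tests of the members' tails are therefore given with and without it. The choice rested on those same tail counts, so leaving it out can itself enlarge differences in tails and is not an independent check. Of the 4 blood markers, miR-223-3p had 372 reads or more and miR-155-5p 195 reads or more in every library. The others were scarce. miR-142a-3p had only 12 to 55 reads, and miR-142a-5p had 0 to 4 in CTL and 1 to 5 in cKO. The erythroid miR-451a had at most 2 reads in any library. The hepatocyte miR-122-5p was detected in all libraries, at 482 to 1246 CPM (reads scaled to a common library size) in CTL and 694 to 1505 CPM in cKO.

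Which members do these cells express, and did their levels differ between genotypes? The family was abundant and was made almost entirely of miR-181a-5p and miR-181b-5p, whose levels did not differ beyond the spread between libraries. Summed over the 4 members, the family's part of the miRNA reads was 7.05% ± 1.26 (SD, n = 5) in CTL and 7.73% ± 1.15 (n = 4) in cKO. Within the family, miR-181a-5p accounted for 62.7% to 72.4% of the reads in CTL and 60.1% to 74.0% in cKO, and miR-181b-5p for 26.6% to 35.2% and 24.6% to 32.8%. miR-181a-5p ranked between 2nd and 9th among all miRNAs by reads in the 9 libraries, and miR-181b-5p between 10th and 17th.

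For miR-181a-5p, the TMM-scaled CPM were 58599, 43192, 41256, 46872 and 34843 in CTL replicates 1 to 5, and 68812, 42230, 49428 and 61331 in cKO replicates 1 to 4. The groups overlapped, and the log2 fold change of 0.30 (SE 0.20) did not pass (edgeR quasi-likelihood test, Benjamini-Hochberg adjusted p = 0.533). miR-181b-5p, which shares both its primary transcripts with miR-181a-5p, lay between 18124 and 22695 CPM in CTL and between 20748 and 23914 CPM in cKO. Its log2 fold change was 0.094 (SE 0.17, edgeR adjusted p = 0.815), and its sign turned in 4 of the 13 other settings. The number of miR-181b-5p reads per miR-181a-5p read was 0.472 ± 0.0757 in CTL and 0.413 ± 0.0958 in cKO.

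The chromosome 8 pair was scarcer and varied more from library to library. miR-181d-5p stood at 737, 644, 532, 1727 and 2612 CPM in CTL replicates 1 to 5 and at 4357, 4934, 5960 and 732 CPM in cKO replicates 1 to 4. In cKO replicates 1 to 3 it was above every CTL library, whereas cKO replicate 4 lay within the CTL range, so the groups overlapped. The means were 1250 ± 898 CPM (n = 5) and 3996 ± 2275 CPM (n = 4), with a log2 fold change of 1.68 (SE 0.64) that did not pass (edgeR adjusted p = 0.284). Without cKO replicate 4 the cKO mean was 5084 ± 812 CPM (n = 3) and the log2 fold change 1.95 (edgeR adjusted p = 0.0533). That library was singled out from these same values, so leaving it out can itself enlarge the difference. With each of the 9 libraries left out in turn, the edgeR adjusted p ran from 0.0533 to 0.501 and 0 passed.

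miR-181c-5p, the neighbour of miR-181d-5p, was at the edge of detection, with 5, 2, 2, 10 and 9 reads in the CTL libraries and 33, 15, 35 and 10 in the cKO libraries. It reached the minimum of 10 reads in 1 CTL library and all 4 cKO libraries, so its entry into the test rested on the group in which it was higher. The log2 fold change was 2.07 (SE 0.73), which did not pass (edgeR adjusted p = 0.249). In all, 0 of the 4 members passed for abundance, beside 0.488% of the 205 miRNAs tested. By the unadjusted p, 31 of the 205 were under 0.05, and DESeq2 called 11. Leaving aside miR-181c-5p for its route into the test, the median log2 fold change of the other 3 members was 0.30, and that of all tested miRNAs was -0.0051.

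**Figure D1:**
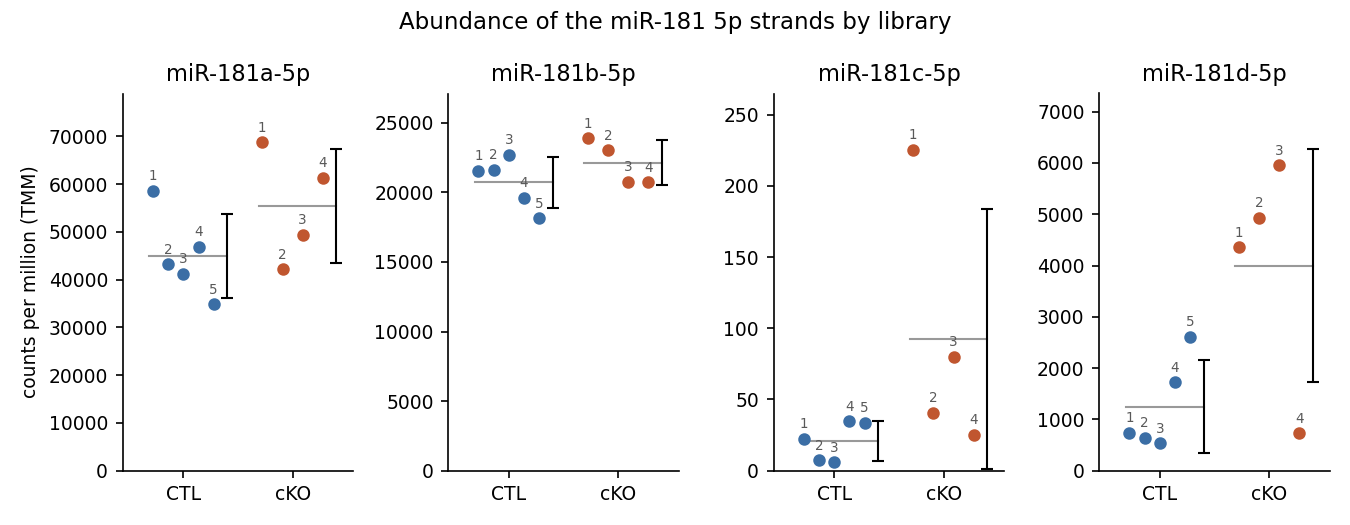
Abundance of the 4 miR-181 5p strands in CPM (TMM-scaled, linear axes from 0, a separate scale for each member), with 1 point per library numbered by replicate, a grey line at the group mean and a bar of ± 1 SD. miR-181a-5p and miR-181b-5p overlapped between the genotypes, and miR-181d-5p was above all CTL libraries in cKO replicates 1 to 3 but at 732 CPM in cKO replicate 4.

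Levels of miR-181c-5p and miR-181d-5p moved together over the 9 libraries (Pearson's r of log2 CPM 0.83), which share depth and genotype, while those of miR-181a-5p and miR-181b-5p did so less (r = 0.47). The miRNAs whose log2 CPM was most like that of miR-181d-5p were miR-25-3p (r = 0.89), miR-365-1-5p (r = 0.86) and miR-181c-5p. The most like miR-181a-5p were miR-148b-5p (r = 0.81), miR-15b-5p and miR-652-3p, and the most like miR-181b-5p were miR-486b-5p (r = 0.83), miR-664-5p and miR-99a-5p. For miR-181c-5p they were miR-151-3p (r = 0.87), miR-340-5p (r = 0.85) and miR-181d-5p. The lymphocyte miRNA miR-150-5p ranged from 4.47 to 67.6 CPM in CTL and from 35.2 to 279.8 CPM in cKO (log2 fold change 1.99, SE 0.69, edgeR adjusted p = 0.240). These levels rest on few reads, 1 to 18 per CTL library and 13 to 103 per cKO library. The part of such cells in the levels of miR-181c-5p and miR-181d-5p was not tested.

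Did the loss of TUT4/7 change the share of miR-181 reads that end in added Ts? Taken over any number of Ts, the share fell for miR-181a-5p and did not pass for the other members, and the effects were small beside those of most miRNAs. Reads of miR-181a-5p ending in at least 1 T past the mature end made up 18.3%, 14.3%, 16.6%, 12.4% and 20.0% in CTL replicates 1 to 5 and 6.59%, 11.9%, 7.13% and 6.13% in cKO replicates 1 to 4. The groups did not overlap, although the highest cKO library, replicate 2, came within a percentage point of the lowest CTL library, replicate 4. The means were 16.3% ± 3.06 (n = 5) and 7.94% ± 2.68 (n = 4), with a log2 odds ratio of -1.21 (SE 0.43, edgeR adjusted p = 0.0258). This call was lost when any of CTL replicates 1, 3 and 5 or cKO replicates 1, 3 and 4 was left out (adjusted p between 0.0551 and 0.0753), while without CTL replicate 2 the adjusted p was 0.000183.

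For miR-181b-5p the share with any added T was 21.2% ± 3.11 in CTL and 16.7% ± 5.78 in cKO (log2 odds ratio -0.49, SE 0.45, edgeR adjusted p = 0.354). For miR-181d-5p it was 29.2% ± 5.88 and 23.8% ± 5.58 (-0.40, SE 0.45, adjusted p = 0.453). Without CTL replicate 2 the log2 odds ratios were -0.57 (adjusted p = 0.102) and -0.42 (adjusted p = 0.274), so neither passed. For miR-181c-5p it was 11 of 28 reads in CTL and 20 of 93 in cKO (-1.28, SE 0.91, adjusted p = 0.232, and -1.20 without CTL replicate 2, adjusted p = 0.194), and it met the minimum of 10 reads in 5 libraries through 1 CTL and 4 cKO libraries. Thus 1 of the 4 members passed, beside 59.4% of the 143 miRNAs tested. Without miR-181c-5p, the members' median log2 odds ratio was -0.49 where that of all tested miRNAs was -2.84. The test required a T-ended read in at least 3 CTL libraries and so favoured miRNAs with tails in CTL.

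Split by tail length, tails longer than the genome can encode were nearly gone from cKO, and almost all T-ended reads left there had a length that the genome can encode. Reads with exactly 1 T were the main T-ended form of miR-181b-5p and miR-181d-5p, and their share did not differ between genotypes beyond the spread between libraries. For miR-181b-5p they made up 16.2%, 17.1%, 16.4%, 16.0% and 19.9% of reads in CTL replicates 1 to 5 and 18.9%, 23.0%, 14.5% and 9.66% in cKO replicates 1 to 4. The cKO libraries lay on both sides of the CTL range, and the log2 odds ratio was -0.12 (SE 0.41, edgeR adjusted p = 0.830). For miR-181d-5p the share was 26.3% ± 4.99 in CTL and 23.8% ± 5.59 in cKO (-0.19, edgeR adjusted p = 0.735). For miR-181a-5p it was 3.76% ± 0.529 and 2.50% ± 0.554 (-0.62, edgeR adjusted p = 0.149). Without CTL replicate 2 none of the 3 passed, with adjusted p of 0.728 for miR-181b-5p, 0.662 for miR-181d-5p and 0.0633 for miR-181a-5p. With miR-181c-5p not tested for want of reads, 0 of 3 members passed for exactly 1 T, beside 58.3% of the 139 miRNAs tested.

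Exactly 2 Ts was the commonest tail of miR-181a-5p in both genotypes. Its share was 11.6%, 9.70%, 11.1%, 7.57% and 13.1% in CTL replicates 1 to 5 and 4.56%, 8.76%, 5.04% and 3.37% in cKO replicates 1 to 4. The highest cKO library lay above the lowest CTL library, and the log2 odds ratio of -1.11 (SE 0.68) did not pass (edgeR adjusted p = 0.122). It passed when CTL replicate 2 was left out (-1.14, adjusted p = 0.00729).

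In miR-181b-5p, reads with 2 Ts fell in every cKO library. They made up 5.18%, 0.331%, 2.71%, 3.48% and 3.92% of reads in CTL replicates 1 to 5, and 0.171%, 0.189%, 0.176% and 0.0485% in cKO replicates 1 to 4. The groups did not overlap, but CTL replicate 2 lay much nearer to the cKO libraries than to the other CTL libraries. The log2 odds ratio was -4.26 (SE 0.80, edgeR adjusted p = 1.23e-06). Pooled over libraries, 863 of 28740 reads in CTL and 42 of 29334 in cKO had this tail, a 21.0-fold lower share (exact 95% interval 15.4 to 29.3, covering counting error only). Without CTL replicate 2 it was 25.6-fold lower, with a log2 odds ratio of -4.78 (edgeR adjusted p = 3.99e-19). The 2-T tail is encoded after Mir181b-2 but not after Mir181b-1, and the 42 reads in cKO could come from either source.

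In miR-181d-5p, reads with 2 Ts numbered 7, 0, 3, 17 and 12 in CTL replicates 1 to 5 and 0, 0, 1 and 0 in cKO replicates 1 to 4. The cKO libraries held 5356 reads of this miRNA against 1707 in CTL, so the pooled share was 122-fold lower in cKO (exact 95% interval 20.7 to 4956). This fold rests on the single cKO read. It was 80.9-fold without cKO replicate 2, at least 20.9-fold without cKO replicate 3, which held that read, and 136-fold without CTL replicate 2. The log2 odds ratio was -6.21 (SE 1.28, edgeR adjusted p = 6.5e-06), and -6.56 without CTL replicate 2 (adjusted p = 4.88e-13). CTL replicate 2, at 0 reads, overlapped the cKO libraries, and an exact permutation test of the shares (two-sided, not adjusted) gave p = 0.0794. For miR-181c-5p, 7 of 28 CTL reads and 15 of 93 cKO reads had 2 Ts (-0.93, SE 1.13, edgeR adjusted p = 0.447, and -0.70 without CTL replicate 2, adjusted p = 0.558). In all, 2 of 4 members passed for exactly 2 Ts, beside 70% of the 60 miRNAs tested. Entry required a 2-T read in at least 3 CTL libraries and so favoured miRNAs with such tails in CTL. miR-181d-5p, with 1 such read in cKO, entered on its CTL reads.

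**Figure D2:**
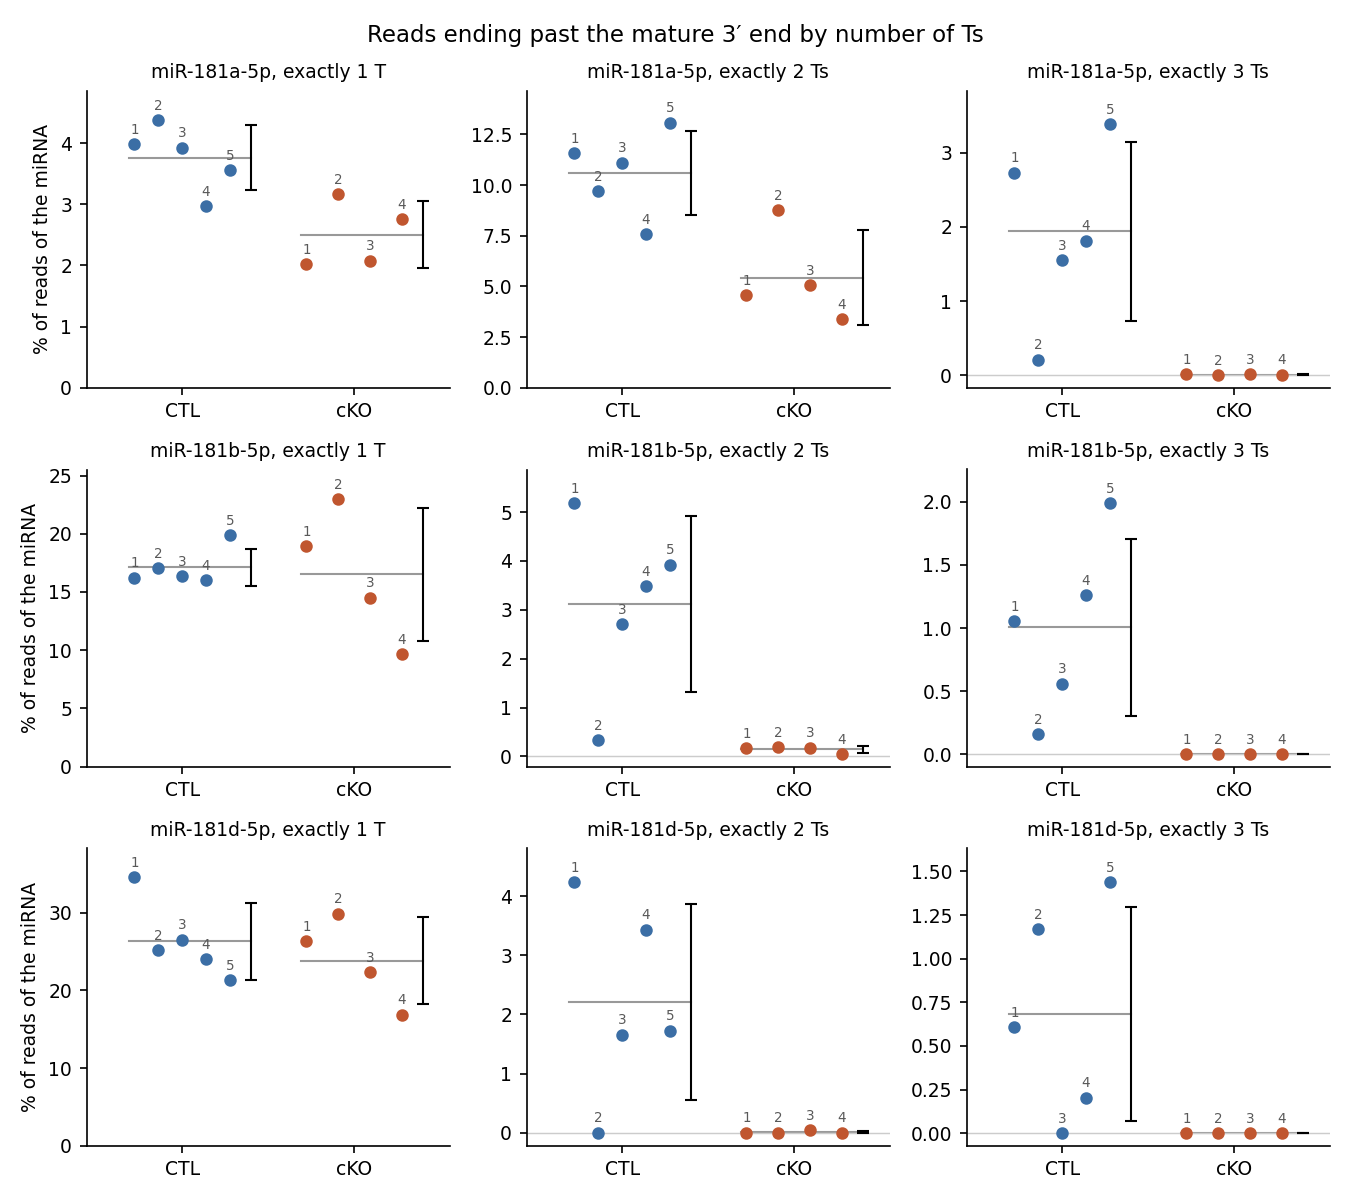
Share of the reads of miR-181a-5p, miR-181b-5p and miR-181d-5p (rows, in % of reads of that miRNA, a separate linear scale in each panel) that carried exactly 1, 2 or 3 Ts past the mature 3′ end (columns), with 1 point per library numbered by replicate, a grey line at the group mean and a bar of ± 1 SD. The 1-T shares of miR-181b-5p and miR-181d-5p overlapped between genotypes, while the 3-T shares in cKO were at or near 0, and CTL replicate 2 was the lowest CTL library for the 3-T share of miR-181a-5p and miR-181b-5p.

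Tails of 3 Ts were nearly absent from the cKO libraries in all members. miR-181a-5p had 358, 24, 218, 244 and 314 such reads in CTL replicates 1 to 5 and 1, 0, 2 and 1 in cKO replicates 1 to 4, although the cKO libraries held more reads of this miRNA. As shares, these were 2.73%, 0.209%, 1.55%, 1.82% and 3.39% in CTL and at most 0.00992% in cKO. The groups did not overlap, and CTL replicate 2 was again the lowest of its group. The pooled share was 338.3-fold lower in cKO (exact 95% interval 131.8 to 1244), and 407.5-fold lower without CTL replicate 2. The log2 odds ratio was -7.97 (SE 1.27, edgeR adjusted p = 5.65e-08), and -8.51 without CTL replicate 2 (adjusted p = 7.74e-22).

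For miR-181b-5p the counts with 3 Ts were 51, 9, 43, 71 and 96 in CTL and 0 in each cKO library, among 28740 and 29334 reads. With a floor of 3 counts over the cKO group, the share was at least 91.9-fold lower (edgeR adjusted p = 1.45e-06), and at least 111-fold lower without CTL replicate 2 (adjusted p = 1.09e-12). For miR-181d-5p they were 1, 2, 0, 1 and 10 in CTL and 0 in each cKO library, at least 14.6-fold lower (edgeR adjusted p = 0.00105). CTL replicate 3, at 0 reads, overlapped the cKO libraries, and an exact permutation test of the shares (two-sided, not adjusted) gave p = 0.0794. Without CTL replicate 5, which held 10 of the 14 reads, this bound was 7.06-fold, without cKO replicate 2 it was 9.68-fold, without cKO replicate 3 it was 7.50-fold, and without CTL replicate 2 it was 13.9-fold (adjusted p = 4.15e-05). miR-181c-5p had 1 read with 3 Ts, in CTL replicate 4, and was not tested. All 3 members tested passed for exactly 3 Ts, beside 84.8% of the 33 miRNAs tested, so the family's count was near that of all miRNAs. Entry required a 3-T read in at least 3 CTL libraries. miR-181b-5p and miR-181d-5p, with 0 such reads in cKO, entered through CTL alone, so their tests could only point to a lower share in cKO. The test on 3 Ts took 1 spread for all 33 miRNAs, and the number called varied from 9 to 31 with a library left out.

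Tails that no exact genomic match of the member encodes were also counted together, a class chosen after the tail lengths had been seen. For miR-181a-5p and miR-181b-5p these are the 3-T reads, with the values already given. For miR-181d-5p they are the 2-T and 3-T reads, at 4.85%, 1.17%, 1.66%, 3.64% and 3.17% in CTL replicates 1 to 5. In cKO, 1 read of 2611 in replicate 3 had such a tail and 0 reads in the other libraries, which allows shares of up to 0.470% in replicate 1, 0.165% in replicate 2 and 1.03% in replicate 4. The CTL libraries were all above the measured cKO shares, but the limit for cKO replicate 4, with 291 reads, came close to the lowest CTL library. The log2 odds ratio of miR-181d-5p was -6.68 (SE 1.14, edgeR adjusted p = 6.52e-08). The same class gave an adjusted p of 5.73e-13 for miR-181a-5p and of 1.82e-10 for miR-181b-5p. Without CTL replicate 2 the adjusted p were 1.12e-15 for miR-181d-5p, 3.96e-45 for miR-181a-5p and 3.19e-27 for miR-181b-5p. On the same reads over all libraries, the edgeR fit of exactly 3 Ts gave adjusted p of 5.65e-08 for miR-181a-5p and 1.45e-06 for miR-181b-5p. The 2 fits differ in the miRNAs they take in. All 3 members tested passed for tails beyond the genome, beside 73.4% of the 109 miRNAs tested. Entry again required a read of the class in at least 3 CTL libraries. miR-181b-5p, with 0 such reads in cKO, and miR-181d-5p, with 1, entered on their CTL reads. By an exact permutation test of the shares over the libraries (two-sided, not adjusted), p was 0.0159 for each of the 3, the smallest that 5 against 4 libraries can give, while for miR-181d-5p its parts, exactly 2 and exactly 3 Ts, each gave 0.0794 as above.

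**Figure D3:**
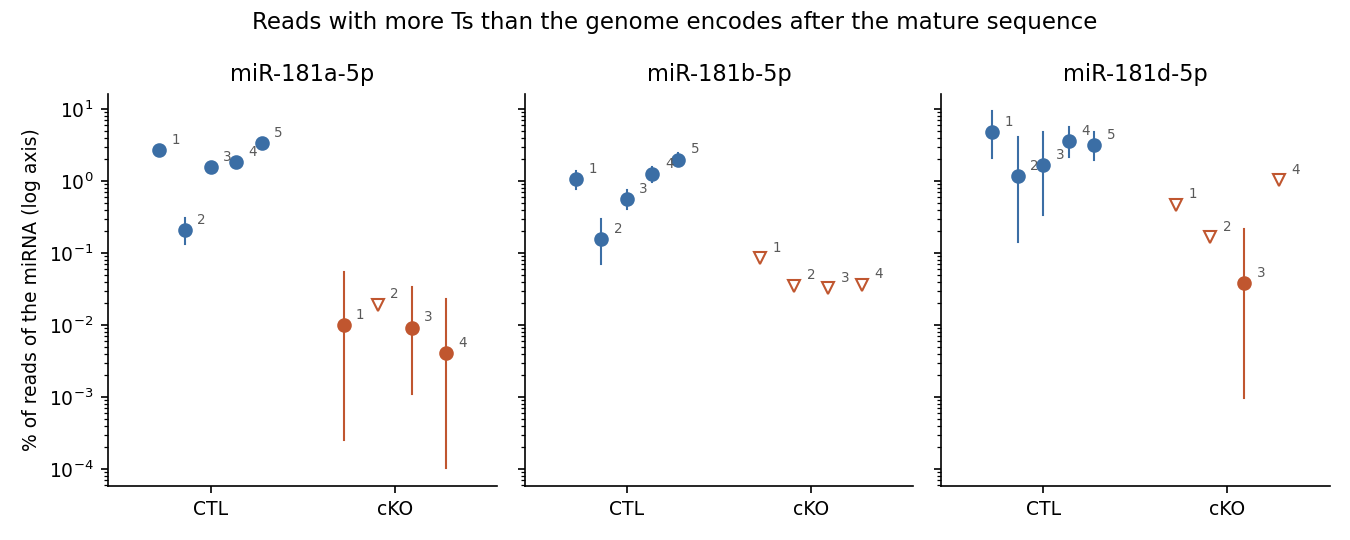
Share of reads with more Ts than any exact genomic match encodes, in % of the reads of miR-181a-5p, miR-181b-5p and miR-181d-5p on a log axis, with 1 point per library numbered by replicate. Bars are exact 95% binomial intervals, and open triangles mark libraries with 0 such reads, drawn at the share that a count of 0 allows (3 counts). The 5 CTL libraries lay above 0.15% for each miRNA, and the cKO libraries with reads lay below 0.04%.

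The make-up of the T-ended reads therefore differed between genotypes. Of the T-ended miR-181a-5p reads in CTL, 23.3% had 1 T, 65.0% had 2 and 11.7% had 3, and in cKO the shares were 32.7%, 67.2% and 0.072%. For miR-181b-5p they were 81.2%, 14.3% and 4.48% in CTL, and 99.1%, 0.881% and 0% in cKO. For miR-181d-5p they were 88.7%, 8.33% and 2.99% in CTL, and 99.9%, 0.0745% and 0% in cKO. Without CTL replicate 2 the CTL shares with 3 Ts were 13.8% for miR-181a-5p, 5.21% for miR-181b-5p and 2.84% for miR-181d-5p. In each of these members the commonest tail in both genotypes had a length that the genome encodes, 2 Ts for miR-181a-5p and 1 T for miR-181b-5p and miR-181d-5p. In miR-181c-5p, 2 Ts were the commonest in both genotypes, with 7 of 11 T-ended reads in CTL and 15 of 20 in cKO.

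The family supplied most of the longest tails in the CTL libraries. Of all 2352 reads with exactly 3 Ts in CTL, 61.4% came from the 4 members, with 56.0% to 72.6% in the single libraries, and miR-181a-5p gave 49.2%. In cKO only 18 reads of any miRNA had 3 Ts, and 4 of them came from the family. Of the reads with exactly 2 Ts, the family gave 45.7% in CTL (77.2% in replicate 2 and 34.0% to 51.3% in the others) and 84.7% in cKO (73.6% to 90.0%). Of these 2-T reads, miR-181a-5p alone gave 40% in CTL and 83.4% in cKO, and the genome can encode its 2 Ts. Of reads with exactly 1 T the family gave 3.62% in CTL and 5.19% in cKO. By their pooled CTL shares with 3 Ts, miR-181a-5p, miR-181b-5p and miR-181d-5p ranked 3, 5 and 7 among the 33 miRNAs tested. A 3-T read of miR-181a-5p can hold 2 Ts that the genome encodes. Counted as tails beyond the genome, which takes in the 1-T tails of miRNAs that no T follows, the family gave 3.83% of CTL reads and 0.0399% of cKO reads. By pooled CTL shares of such tails, miR-181a-5p, miR-181b-5p and miR-181d-5p ranked 72, 85 and 57 among the 109 miRNAs tested.

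**Figure D4:**
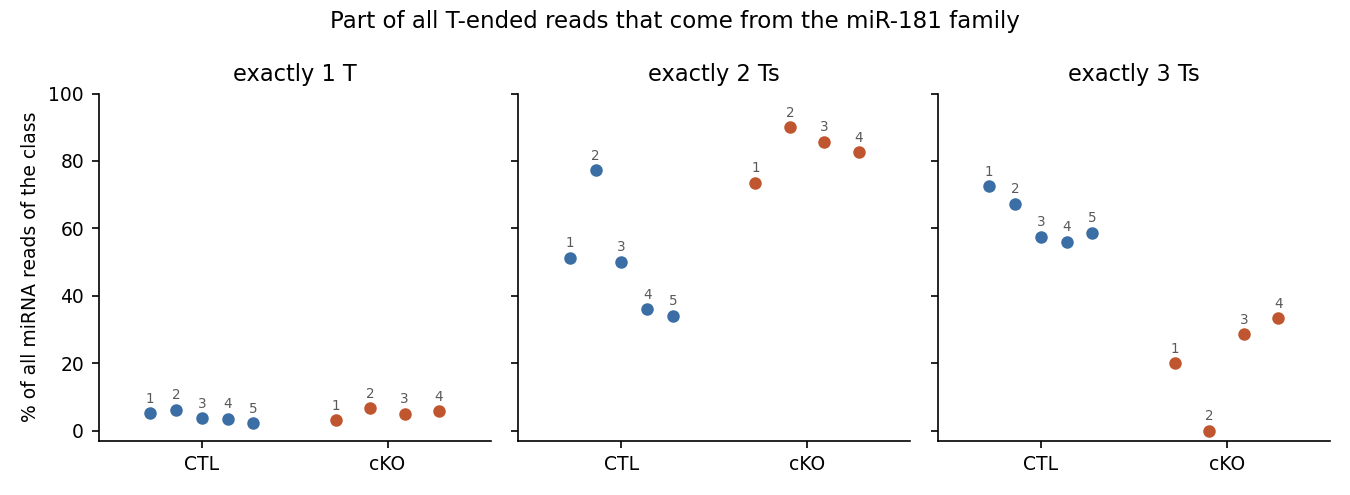
Share of all miRNA reads with exactly 1, 2 or 3 Ts past the mature end that came from the 4 miR-181 members, in % and with 1 point per library numbered by replicate. The family gave 56.0% to 72.6% of the 3-T reads in the CTL libraries, and in cKO 73.6% to 90.0% of the 2-T reads, while the 3-T shares in cKO rest on only 18 reads in all.

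Where did the other reads end? For miR-181a-5p, miR-181b-5p and miR-181d-5p, about as many reads ended at the mature 3′ end in both genotypes, and in miR-181a-5p more of them ended short of it in cKO. The share of miR-181a-5p reads ending at the last mature base was 56.0% in CTL and 54.8% in cKO, of miR-181b-5p reads 44.1% and 43.7%, and of miR-181d-5p reads 57.7% and 57.2%. For miR-181c-5p, 0% to 50% of its few reads per library ended there in CTL and 53.3% to 90% in cKO, and the groups did not overlap. Reads ending before it, a class also chosen after the data had been seen, made up 27.6%, 27.3%, 26.2%, 29.7% and 27.9% of miR-181a-5p reads in CTL replicates 1 to 5 and 39.2%, 33.1%, 41.9% and 34.8% in cKO replicates 1 to 4. The groups did not overlap, with a log2 odds ratio of 0.63 (SE 0.16, edgeR adjusted p = 0.0401). The largest part of it was reads 2 bases short, at 13.7% in CTL and 19.6% in cKO. Leaving out any single library other than cKO replicate 2 lost this call (adjusted p between 0.0516 and 0.150), while without cKO replicate 2 the adjusted p was 0.0402. Short, mature-end and T-ended reads together make up all reads of a miRNA. The T-ended share of miR-181a-5p was 16.3% in CTL and 7.94% in cKO, so the calls on short and on T-ended reads are not independent.

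In miR-181d-5p the short reads did not overlap either, at 13.1% ± 2.72 in CTL and 18.9% ± 1.85 in cKO, but did not pass (0.62, edgeR adjusted p = 0.220). In miR-181b-5p they were 34.7% ± 1.24 and 39.7% ± 3.40 (0.31, edgeR adjusted p = 0.314). In miR-181c-5p the odds ratio pointed the other way (-1.22, edgeR adjusted p = 0.462), on 28 and 93 reads. Thus 1 of 4 members passed, beside 4.81% of the 187 miRNAs tested. The median log2 odds ratio of all 187 was 0.27, so short reads also rose in cKO at the median over all miRNAs. At the 5′ end, at least 97.1% of the reads of a member started at base 1 in every library.

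**Figure D5:**
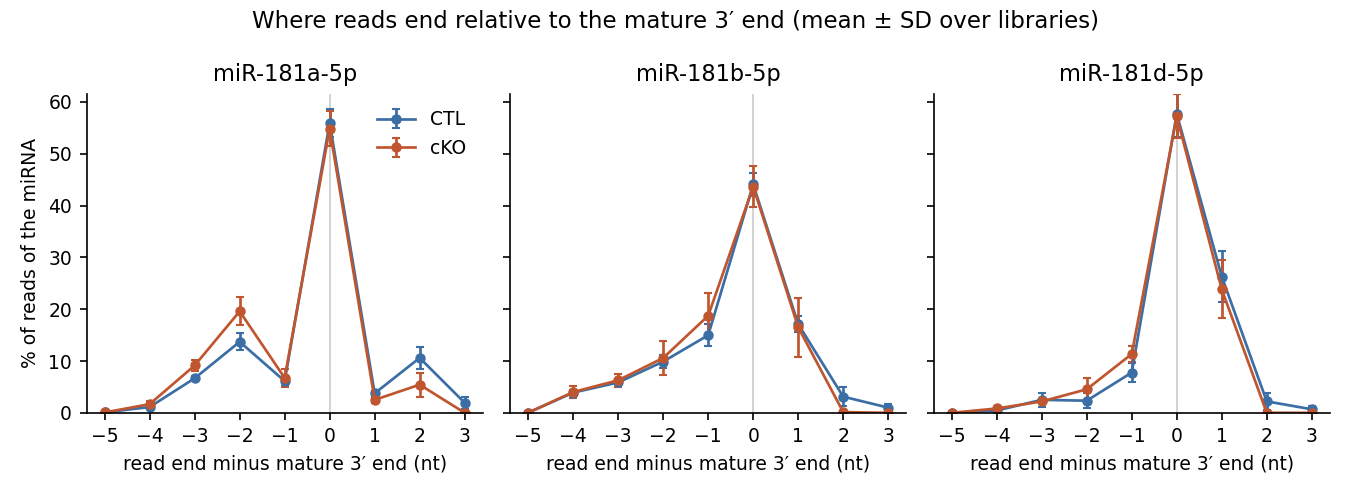
Position of read ends relative to the last base of mature miR-181a-5p, miR-181b-5p and miR-181d-5p (0, with positive values for Ts past it and negative values for reads cut short, in nt), in % of the reads of each miRNA, as the mean over 5 CTL and 4 cKO libraries with bars of ± 1 SD. At 0 the means were close (56.0% and 54.8% for miR-181a-5p), and at -2 miR-181a-5p had 13.7% in CTL and 19.6% in cKO.

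Did the genotype affect miR-181a-5p and miR-181b-5p, which are made from the same transcripts, unequally? In each library the log2 odds of a T-ended read of miR-181b-5p was subtracted from that of miR-181a-5p. The difference was -0.48 ± 0.24 in CTL and -1.20 ± 0.42 in cKO, so that any-T reads were lower for miR-181a-5p relative to miR-181b-5p in cKO by 0.72 on the log2 scale. The exact permutation test (two-sided) gave p = 0.0317, or 0.0635 adjusted over the 2 read classes compared. For 3 Ts the difference was 0.91 ± 0.50 in CTL and 0.070 ± 0.79 in cKO (exact permutation p = 0.0952, adjusted 0.0952), a value that rests on 0.5 reads added to each class where the cKO libraries had none. Neither difference passed after adjustment, with or without CTL replicate 2 (adjusted exact permutation p = 0.0857 for both without it).

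Over the 9 libraries the share with any added T of miR-181a-5p was ordered most like that of miR-330-3p (Spearman's rho 0.91), miR-27b-3p (0.90) and miR-103-3p (0.88). For miR-181b-5p these were miR-223-5p (0.88), miR-223-3p (0.83) and miR-330-5p (0.82), and for miR-181d-5p miR-27b-5p (0.77), miR-155-5p (0.75) and miR-186-5p (0.73). The libraries share genotype and depth, so these orders are a description.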

How the data were processed

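sRNA-seq libraries of 5 Tut4/7 CTL and 4 Tut4/7 cKO preLSC samples were made from the 15 to 40 nt fraction with the NEBNext kit and 16 PCR cycles. The submitters' processing notes name cutadapt 5.0, Bowtie 1.3.1 and DESeq2 1.42.1. The authors mapped reads without mismatches to mature miRNAs extended by TTT and deposited raw counts per miRNA and per read sequence. A read past the mature 3′ end was marked as uridylated. Members and lists were chosen with earlier results of these data known. Per-sequence counts summed to the count table exactly.

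Abundance was tested in edgeR 4.0.16 (R 4.3.3; TMM, quasi-likelihood, Benjamini-Hochberg over all miRNAs, threshold 0.05) with at least 10 reads in 4 libraries. Read classes were tested as the interaction of class and genotype with a term per library, for miRNAs with at least 10 reads in 5 libraries and a read of the class in 3 CTL libraries, so that fold changes are log2 odds ratios. In the fits of 2 Ts, 3 Ts and tails beyond the genome edgeR took 1 spread for all miRNAs, so their p-values rest on it. Scripts were tested on simulated data. The miRNAs most like a member were the 3 with the highest coefficient, and markers and partner strands were also named. Alternatives were RLE factors, DESeq2 1.42.0, no filter, a quasi-binomial model, uridylated reads alone, a minimum of 200 reads, a rule blind to genotype, reads reaching the mature end, reads starting at base 1, a replicate block and leaving out each library. Mature sequences were matched exactly to GRCm39. Intervals are exact (Clopper-Pearson, 95%) and the floor is 3 counts. PCR reads carry no molecular identifiers, so both cover counting error only. The methods describe replicates as coming from independent animals or embryos.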

Additional observations from a re-analysis of the deposited data

Results flagged for a closer look

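In 56 groups of libraries examined (the CPM and 6 read shares of each member in each genotype), 8 values lay far from the rest of their group by Dixon's 95% criterion. For independent, normally distributed values chance meets it in about 1 of 20 groups. Some groups here were mostly 0 or held the same reads as another, so the 8 flags cannot be set against that rate. For miR-181b-5p, the share with exactly 1 T in CTL replicate 5 was 19.9%, where the next CTL library had 17.1%. Its share with 2 Ts in cKO replicate 4 was 0.0485%, where the next cKO library had 0.171%. For miR-181d-5p, the share with any added T in CTL replicate 1 was 39.4%, where the next had 28.2%. The share of miR-181d-5p reads with 2 Ts, and with more Ts than the genome encodes, was 0.0383% in cKO replicate 3, from the same single read, where the other cKO libraries had 0. The 3 others were miR-181c-5p values from libraries of 5 and 10 reads. They were the 1-T share of 40% in CTL replicate 1, and the 3-T share of 10% in CTL replicate 4, which is also its share with more Ts than the genome encodes.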

How the results depend on the processing

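Of 339 values recomputed under other settings, 304 kept their direction and their side of the threshold, 20 lost the call, 4 gained it and 11 turned in sign. The abundance of miR-181b-5p turned to -0.040 without the count filter, to -0.068 in the replicate block, and ranged from -0.067 to 0.13 with a library left out. That of miR-181d-5p passed without the filter (1.52, adjusted p = 0.0187, and between 0.0187 and 0.501 over all settings). For any added T, miR-181a-5p was not past the threshold with its uridylated reads tested alone (-0.79 in edgeR, -0.75 in DESeq2) or in the replicate block (-1.11, adjusted p = 0.0752), and ranged from -1.44 to -1.09 with a library left out. Tests on uridylated reads alone include the change in abundance, and gave 1.56 in edgeR and 1.63 in DESeq2 for miR-181d-5p, past the threshold, and 1.13 and 1.32 for miR-181c-5p. For 1 T, miR-181b-5p turned to 0.026 over reads reaching the mature end and ranged from -0.35 to 0.15 with a library left out, and miR-181d-5p from -0.35 to 0.00222. For 2 Ts, miR-181a-5p ranged from -1.39 to -0.90. In the replicate block the 3-T calls of miR-181b-5p (-8.49, adjusted p = 0.155) and miR-181d-5p (-5.63, adjusted p = 0.0854) were lost, as was that of miR-181a-5p reads ending short (0.63, adjusted p = 0.337), which ranged from 0.53 to 0.71 with a library left out. Tails beyond the genome kept all 3 calls in all settings run. For miR-181a-5p and miR-181b-5p these are the same reads as 3 Ts, fitted beside other miRNAs with another common spread. In the replicate block the same miR-181b-5p reads gave an edgeR adjusted p of 2.83e-11 as this class and 0.155 as 3 Ts. The kept calls are therefore not a separate check on the 3-T calls. With 1 read added, the pair difference passed for any T (-0.72) and for 3 Ts (-1.30). The cause of these changes was not tested.

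Over all miRNAs, the abundance calls were 1, and 11 with DESeq2, 18 without the filter, 0 in the block and 0 to 2 with a library left out. The 3-T calls were 28, 6 in the block and 9 to 31 with a library left out, and the calls for short reads were 9, 3 and 2 to 11. Correlations of same-numbered libraries' deviations were -0.11, -0.20, 0.43 and 0.079. They were not compared with those of differently numbered libraries, so they cannot show whether the numbers pair the samples. Depth limits miR-181c-5p most, since its 28 CTL reads leave intervals up to 97.5 percentage points wide in a library.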

Other observations

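Rows for 5 partner (3p) strands of the family, the other strands of the hairpins' duplexes, were in the count table. They had fewer reads than the 5p strands over each genotype, by far for the strands of miR-181a, miR-181b and miR-181d, but by less for miR-181c-3p, with 14 reads in CTL and 48 in cKO against 28 and 93 for miR-181c-5p. Only miR-181a-1-3p had enough reads to be tested, with 115, 68, 111, 111 and 66 reads in CTL replicates 1 to 5 and 19, 165, 64 and 82 in cKO replicates 1 to 4. Its level did not differ beyond the spread (log2 fold change -0.56, SE 0.42, edgeR adjusted p = 0.618). Reads ending in added Ts numbered 4, 0, 2, 3 and 0 in CTL and 0 in every cKO library, or 9 of 471 against 0 of 330 reads (edgeR adjusted p = 0.0335). CTL replicates 2 and 5, at 0, overlapped the cKO libraries. It met the entry rule with T-ended reads in 3 CTL libraries, the fewest allowed, so its entry rested on the group in which they were higher. Of the 143 miRNAs tested for any added T, 59.4% passed. The miR-181c-3p reads numbered 2, 0, 5, 2 and 5 in CTL replicates 1 to 5 and 4, 10, 29 and 5 in cKO replicates 1 to 4, and exceeded those of miR-181c-5p in CTL replicate 3. miR-181d-3p had 7 reads in CTL and 14 in cKO, and both strands had too few for the test. miR-181b-1-3p had 1 read in CTL and 0 in cKO, and miR-181b-2-3p had 0 and 3.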
